A study of Mus musculus with 6 samples.

Results

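The genes of cellular iron uptake, storage and sensing were examined in mouse advanced embryonic stem cells (ASCs) with and without a functional *Bdh2* gene. The 10 members were chosen by symbol: *Tfrc*, *Slc11a1*, *Slc11a2*, *Slc40a1*, *Fth1*, *Ftl1*, *Ncoa4*, *Aco1*, *Ireb2* and *Fbxl5*. They were 10 of the 54715 genes in the count table, and all 10 were among the 16758 genes with enough counts to test. RNA sequencing was performed on 3 wild type (WT) libraries and 3 *Bdh2*-knockout (Bdh2-/-) libraries. Both groups were the same ASC line, derived from a cross of a 129/sv female with a GOF/GFP male, and both were grown with activin A, BMP4, CHIR99021 and LIF. The knockout was made with CRISPR/Cas9 and 2 guide RNAs near the start codon of *Bdh2*. The study continued with a single-colony ASC clone that carried a deletion on both alleles. If the knockout libraries all came from it, traits of that clone cannot be told apart from the loss of *Bdh2*. The sources used here do not say whether the 3 libraries of a group came from separate cultures, so the p-values measure the spread between these libraries, which may be technical.

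BDH2 is a dehydrogenase that has been linked to the making of a mammalian siderophore, a small molecule that binds iron, which ties the gene to the handling of iron. Most cells take up iron as transferrin bound to the transferrin receptor, move it out of endosomes through a divalent metal transporter, store what is not used in ferritin and export it through ferroportin. Much of this system is controlled after transcription. The iron regulatory proteins IRP1 and IRP2 bind a stem-loop, the iron responsive element (IRE), when iron is scarce. An IRE in the 5′ untranslated region (UTR) lets them block translation, while IREs in the 3′ UTR of the transferrin receptor mRNA let them protect it from decay, so the amount of an mRNA need not follow the amount of its protein.

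The stem-loop sequences are printed here because they show which members hold letters of the form of an IRE. UTRs of the GENCODE M21 annotation (GRCm38) were searched on the sense strand for an unpaired C, 5 bases, the loop CAGTGN and 5 bases able to pair with the first 5 (G-U pairs allowed), with or without 1 extra unpaired base in the 3′ arm. In all, 8 matches lay in 5 of the 10 members. Each is printed 5′ to 3′ as DNA with 6 more bases at each end, and the capitals mark the 6-base loop.
Tfrc 3′ UTR, chr16:32631219-32631247, plus strand: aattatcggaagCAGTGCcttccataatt
Tfrc 3′ UTR, chr16:32631598-32631626, plus strand: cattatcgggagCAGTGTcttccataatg
Tfrc 3′ UTR, chr16:32631663-32631691, plus strand: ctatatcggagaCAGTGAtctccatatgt
Tfrc 3′ UTR, chr16:32631710-32631738, plus strand: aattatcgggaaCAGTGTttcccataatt
Slc11a2 3′ UTR, chr15:100395152-100395181, minus strand: agccatcagagcCAGTGTgtttctatggtt
Slc40a1 5′ UTR, chr1:45925465-45925493, minus strand: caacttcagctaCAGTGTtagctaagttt
Fth1 5′ UTR, chr19:9982732-9982760, plus strand: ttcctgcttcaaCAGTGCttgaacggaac
Ftl1 5′ UTR, chr7:45459779-45459807, minus strand: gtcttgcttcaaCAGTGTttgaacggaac

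The matches of the ferritin and ferroportin mRNAs lay upstream of the coding sequence and those of both import genes lay downstream of it. The 4 *Tfrc* matches began 889, 1268, 1333 and 1380 bases after the stop codon in the 1 of 3 coding transcripts whose annotated 3′ UTR holds them. The *Slc11a2* match, the one with an extra unpaired base, began 38 bases after the stop codon in 1 of 7 coding transcripts. In the 5′ UTRs the match began 132 bases before the start codon in *Fth1*, 170 in *Ftl1* and 224 in *Slc40a1*. The printed stretch was in 4 of 5 coding transcripts of *Fth1*, 2 of 3 of *Ftl1* and 1 of 4 of *Slc40a1*. No match was found in the annotated UTRs of *Slc11a1*, *Aco1*, *Ireb2*, *Fbxl5* or *Ncoa4*. The same rule matched a UTR of 497 of the 21505 genes with an annotated UTR, or 2.31%, and a match is only a description of the letters. The counts are per gene, so they do not tell transcripts with the element from those without it.

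**Figure D1:**
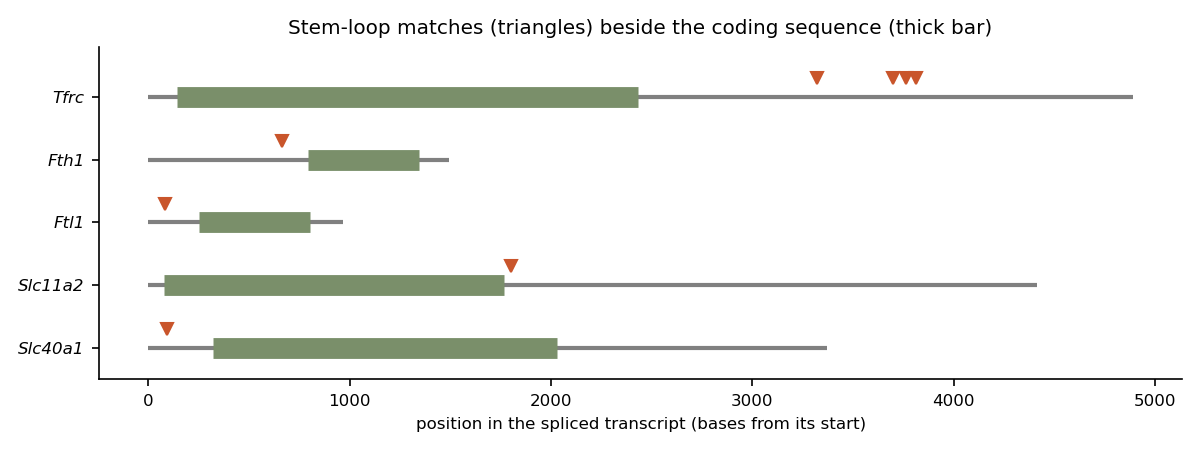
Positions of the stem-loop matches (triangles) along 1 annotated transcript of each of the 5 members with a match. The x axis is the distance from the transcript's first base, the grey line is the spliced transcript and the thick bar is its coding sequence. The 4 *Tfrc* matches stand in the 3′ UTR, and those of *Fth1*, *Ftl1* and *Slc40a1* stand before the coding sequence.

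The libraries held 18927748 to 28333541 counts. Levels are given as CPM (counts scaled to one common library size, with TMM factors computed here). Without those factors, 3 counts correspond to 0.106 to 0.158 CPM. *Bdh2* itself (chr3:135281221-135304426, plus strand) was at 10.4, 9.55 and 8.26 CPM in WT ASCs and at 5.95, 4.98 and 5.38 CPM in *Bdh2*-knockout ASCs. It was lower in every knockout library, at 57.7% of the WT mean (log2 fold change -0.79, SE 0.12, adjusted p = 2.46e-04 from edgeR), and counts per gene do not show the deletion. Pluripotency markers, *Pou5f1* and *Nanog* among them, were abundant in every library (summed level of 8 markers 6505 to 6734 CPM). All 10 primitive endoderm markers rose in the knockout (summed level 239.5 to 263 CPM in WT, 601 to 661 CPM in the knockout). The libraries also differed in hepatocyte transcripts such as *Alb*, whose 12 markers summed to 524, 319 and 51.1 CPM in WT ASCs and to 42.0, 152 and 29.8 CPM in the knockout. Of these 12 markers 11 were lower in the knockout, and the level followed single libraries (WT 1, WT 2 and knockout 2) within both groups.

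Of the 10 members, 6 differed between *Bdh2*-knockout and WT ASCs (edgeR quasi-likelihood test, Benjamini-Hochberg adjusted p under 0.05 over all tested genes). *Slc40a1* and *Ncoa4* were higher, while *Tfrc*, *Slc11a2*, *Slc11a1* and *Fbxl5* were lower. Neither ferritin subunit and neither iron regulatory protein passed the test. In this comparison 41.7% of all tested genes passed, 21.0% higher and 20.8% lower. The members' count of 6 of 10 is to be read against that broad background, as are their median log2 fold change of -0.03 (all tested genes -0.01) and their median absolute change of 0.32 (all tested genes 0.23). The values of the 3 WT and the 3 knockout libraries did not overlap for the 6 that passed and overlapped for the other 4, where 52.4% of all tested genes had groups that did not overlap. In these bulk samples fewer cells expressing a gene and less RNA per cell cannot be told apart.

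**Figure D2:**
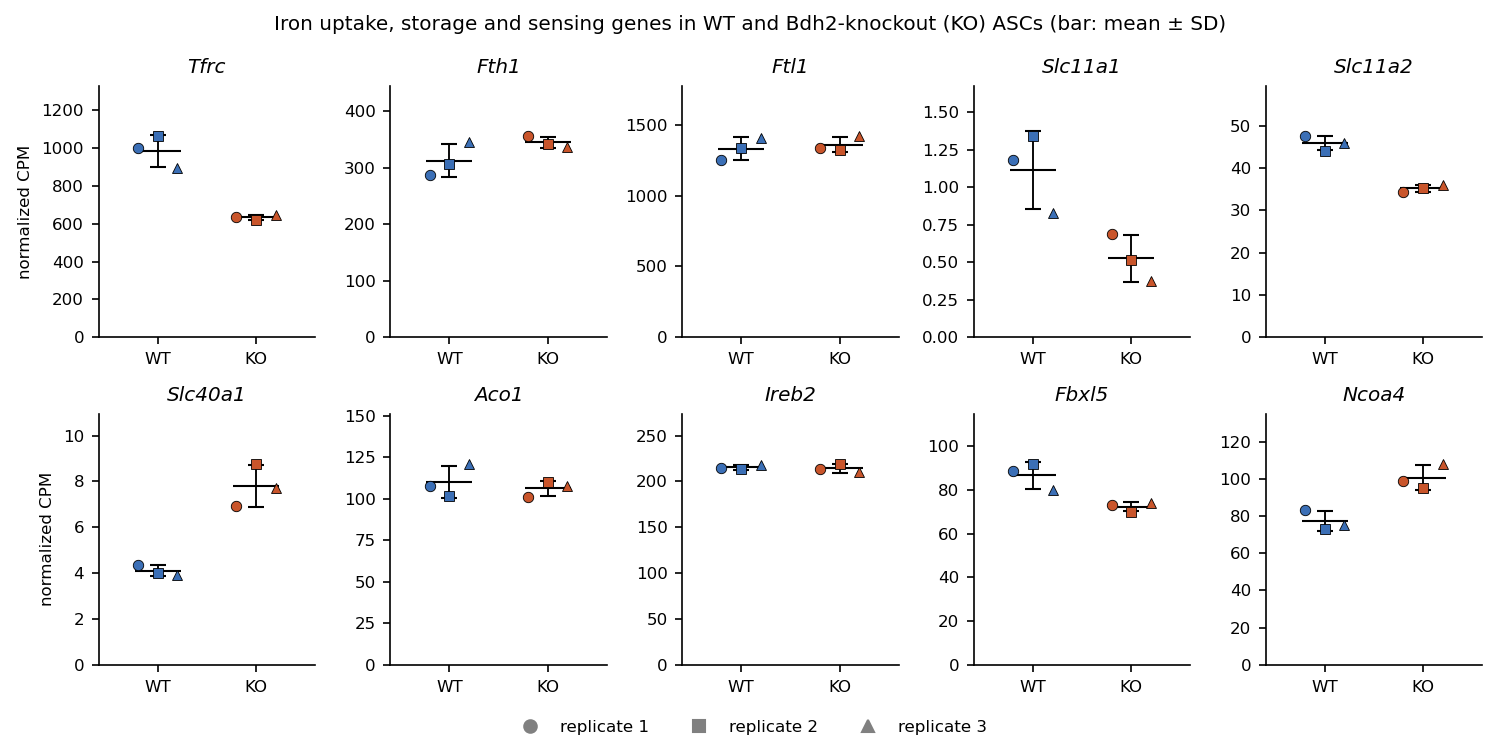
Normalized CPM (y axis, from 0) of the 10 members in each WT and *Bdh2*-knockout (KO) ASC library, with 1 symbol per replicate number and the mean ± SD of 3 libraries as bars. The groups are apart for *Tfrc*, *Slc11a1*, *Slc11a2*, *Slc40a1*, *Fbxl5* and *Ncoa4*, and they overlap for *Fth1*, *Ftl1*, *Aco1* and *Ireb2*.

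The levels of the members, compared per length of gene as FPKM (CPM divided by gene length in kilobases, computed here), covered a wide range. In WT ASCs the ferritin light chain *Ftl1* stood highest at 994 ± 59.6 FPKM (SD, n = 3), followed by the heavy chain *Fth1* at 361 ± 34.3 and *Tfrc* at 159 ± 13.8. *Aco1* (24.6 ± 2.16) and *Ireb2* (22.7 ± 0.269) came next and lay within their spread of each other, and so did *Fbxl5* (8.91 ± 0.642) and *Ncoa4* (8.25 ± 0.569). *Slc11a2* followed at 7.22 ± 0.268 FPKM. The exporter *Slc40a1* (0.455 ± 0.0269 FPKM) and *Slc11a1* (0.301 ± 0.0700 FPKM) were the least abundant. Averaged over the libraries of both groups, 20.5% and 7.24% of tested genes had a lower mean level than these genes. The order depends on the length used. An alternative chosen after seeing the data used the longest coding transcript in place of the deposited gene length. There *Ireb2* (37.3 ± 0.442 FPKM in WT) stood above *Aco1* (28.8 ± 2.54). *Fth1* (209 ± 19.9) and *Tfrc* (202 ± 17.5) lay within their spread of each other. For *Fth1* that transcript is 1494 bases long, against a deposited 866, and its coding sequence starts at base 796.

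*Tfrc* (chr16:32608920-32632794, plus strand) encodes transferrin receptor 1, the main entry of transferrin-bound iron. It was measured at 1001, 1063 and 894 CPM in WT ASCs and at 636, 621 and 647 CPM in *Bdh2*-knockout ASCs. Every knockout library lay below every WT library, and the knockout libraries lay close together. The mean fell from 986 ± 85.4 to 635 ± 13.4 CPM (SD, n = 3 libraries per group), or to 64.4% of WT (log2 fold change -0.64, SE 0.06, 95% interval -0.76 to -0.51, edgeR adjusted p = 3.74e-06). A larger absolute change was seen for 15.0% of tested genes. *Tfrc* is also the member with 4 stem-loop matches in its 3′ UTR.

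*Slc11a2* (chr15:100387898-100425072, minus strand) encodes the divalent metal transporter DMT1, which carries iron out of the endosome after transferrin uptake. Its level was 47.5, 44.1 and 46.0 CPM in WT ASCs and 34.3, 35.2 and 36.0 CPM in the knockout, so the groups were well apart. The knockout mean of 35.2 ± 0.859 CPM was 76.7% of the WT mean of 45.9 ± 1.70 CPM (log2 fold change -0.38, SE 0.05, edgeR adjusted p = 1.02e-04). Gene *Gm5475* on the opposite strand overlaps 6.33% of the exon bases of *Slc11a2*, and the strand setting of the counting is not given in the sources used here.

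*Slc11a1* (chr1:74375195-74386062, plus strand) encodes NRAMP1, a relative of DMT1 known from the phagosomes of macrophages. It was close to the limit of detection, with 23, 27 and 21 counts in WT ASCs and 19, 14 and 9 counts in the knockout, which are 1.18, 1.34 and 0.830 CPM against 0.689, 0.513 and 0.375 CPM. The groups did not overlap, but the lowest WT library and the highest knockout library differed by 2 counts in libraries of different depth. The test gave a log2 fold change of -1.05 (SE 0.33, 95% interval -1.80 to -0.34, edgeR adjusted p = 0.0208). The call was lost when WT 1, WT 2, knockout 2 or knockout 3 was left out (edgeR adjusted p = 0.0607, 0.0870, 0.0633 and 0.0873) and when the hepatocyte level was a covariate (log2 fold change -0.77, adjusted p = 0.176). Without WT 1 and WT 2 together the log2 fold change was -0.65 (edgeR adjusted p = 0.399). Of 12 macrophage markers, 6 were abundant enough to test, 3 of them rose and none fell, while the summed level was 98.0 to 115 CPM in WT and 135 to 144 CPM in the knockout, most of it *Laptm5*. The macrophage marker *Adgre1* had 0 to 2 counts and *Ptprc* 0 to 6 counts in any library, and the part of other cells in the *Slc11a1* result was not tested.

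*Slc40a1* (chr1:45908068-45926523, minus strand) encodes ferroportin, the known exporter of cellular iron. It was at 4.37, 4.01 and 3.91 CPM in WT ASCs (85, 81 and 99 counts) and at 6.92, 8.76 and 7.71 CPM in the knockout (191, 239 and 185 counts). All knockout libraries were above all WT libraries, while the knockout libraries varied more among themselves. The mean rose 1.91-fold, from 4.10 ± 0.242 to 7.80 ± 0.918 CPM (log2 fold change 0.93, SE 0.13, 95% interval 0.65 to 1.2, edgeR adjusted p = 1.14e-04), and 7.02% of tested genes had a larger absolute change. The summed primitive endoderm markers moved with it, from 239.5 to 263 CPM in WT to 601 to 661 CPM in the knockout, and their part in the result was not tested.

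**Figure D3:**
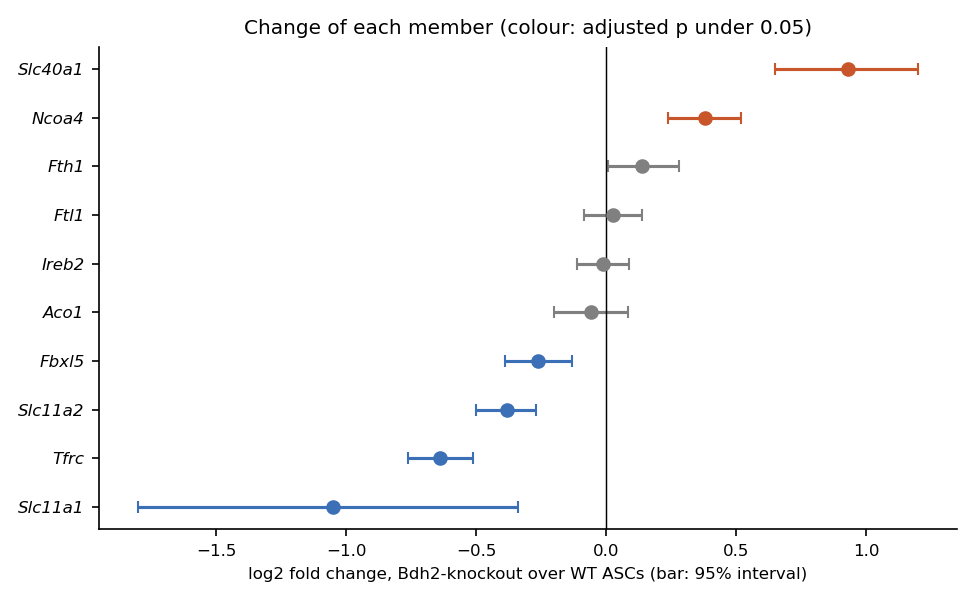
Log2 fold change of *Bdh2*-knockout over WT ASCs (x axis) for each member, from the edgeR fit over all 16758 tested genes, with 95% intervals as bars. Red and blue points passed an adjusted p of 0.05 as higher and lower, and grey points did not. *Slc11a1* has the widest interval, from -1.80 to -0.34.

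Ferritin is a shell of heavy and light chains, of which the heavy chain oxidises iron and the light chain helps to store it. *Fth1* (chr19:9982703-9985092, plus strand) was at 287, 306 and 345 CPM in WT ASCs and at 356, 342 and 337 CPM in the knockout. WT 3 lay among the knockout libraries, so the groups overlapped. The difference did not pass the test (313 ± 29.7 against 345 ± 9.46 CPM, log2 fold change 0.14, 95% interval 0.0061 to 0.28, edgeR adjusted p = 0.0863). The value moved with the fit. It passed without WT 3 (log2 fold change 0.22, edgeR adjusted p = 0.00202) and with no filter on low counts (0.16, adjusted p = 0.0261), while it was 0.0824 without WT 1 (adjusted p = 0.304) and 0.0495 with the hepatocyte covariate (adjusted p = 0.629).

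*Ftl1* (chr7:45457944-45459884, minus strand) was at 1249, 1339 and 1409 CPM in WT ASCs and at 1333, 1323 and 1419 CPM in the knockout. The libraries of both groups were interleaved. The log2 fold change was 0.03 (95% interval -0.083 to 0.14, edgeR adjusted p = 0.695). Of the 50-base stretches of the *Ftl1* transcript 90.6% also occur in transcripts of other genes (17, mostly pseudogenes such as *Ftl1-ps1*), and how reads with several matches were counted is not given in the sources used here. Also, 34.6% of the exon bases of *Ftl1* are overlapped by *Gm10252* on the opposite strand and *Gm22133* on the same strand. These copies held at most 3.92% as many counts as *Ftl1*. With the copies added, the level was 1378 ± 81.5 CPM in WT and 1407 ± 51.2 CPM in the knockout.

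*Ncoa4* (chr14:32159865-32179855, plus strand) encodes the receptor that takes ferritin to the lysosome so that its iron is released. Its level was 83.3, 73.2 and 75.3 CPM in WT ASCs and 98.7, 95.3 and 108 CPM in the knockout. The groups did not overlap, and the knockout mean was 130.2% of WT (77.3 ± 5.33 against 101 ± 6.46 CPM, log2 fold change 0.38, SE 0.06, edgeR adjusted p = 4.31e-04). Of its 50-base stretches 43.1% are shared with *Gm6768*, whose counts reached 47.0% of those of *Ncoa4* and which rose as well (33.0 ± 2.19 to 45.3 ± 1.22 CPM, log2 fold change 0.46, SE 0.06, edgeR adjusted p = 5.84e-05). Gene and copy together were at 118.8, 105.3 and 106.7 CPM in WT and at 143.1, 140.1 and 154.5 CPM in the knockout, again with no overlap.

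The iron regulatory proteins read the cytosolic iron level. *Aco1* (chr4:40143081-40198338, plus strand) encodes IRP1, which is an aconitase while it holds an iron-sulfur cluster and binds IREs without it. Its level was 108, 102 and 121 CPM in WT ASCs and 101, 109.9 and 108 CPM in the knockout, with overlapping groups (log2 fold change -0.06, 95% interval -0.20 to 0.084, edgeR adjusted p = 0.510). *Ireb2* (chr9:54863789-54912530, plus strand) encodes IRP2, which is degraded in iron-replete cells. Its values varied little relative to their size, with 215, 213 and 218 CPM in WT ASCs and 214, 219 and 209.8 CPM in the knockout. The groups overlapped here too (log2 fold change -0.01, 95% interval -0.11 to 0.089, edgeR adjusted p = 0.879).

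*Fbxl5* (chr5:43744615-43821638, minus strand) encodes the iron-binding subunit of the ubiquitin ligase that marks IRP2 for degradation when iron is present. It was at 88.6, 91.9 and 79.8 CPM in WT ASCs and at 73.2, 70.0 and 73.9 CPM in the knockout. Each knockout library was below each WT library, by a smaller margin than for *Tfrc*. The knockout mean was 83.4% of WT (86.8 ± 6.26 against 72.3 ± 2.09 CPM, log2 fold change -0.26, SE 0.06, edgeR adjusted p = 0.00347). Without WT 1 and WT 2 together, which leaves 1 WT library, the call was lost (log2 fold change -0.14, edgeR adjusted p = 0.107).

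Against a required change of more than 1.2-fold, 3 members passed, *Tfrc*, *Slc11a2* and *Slc40a1*, where 14.7% of all tested genes did. The same 3 members passed in each of the 17 fits, which are the one reported and 16 alternatives. *Ncoa4* passed in 16 of these fits and *Fbxl5* in 15, and both failed where 1.2-fold was required (edgeR adjusted p = 0.0727 and 0.619).

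Ratios between members were formed within each library from FPKM, which cancels the depth. Their size rests on the gene lengths, but the difference between the groups does not. The ratio of *Fth1* to *Ftl1* was 0.355, 0.354 and 0.379 in WT ASCs and 0.413, 0.400 and 0.368 in the knockout. These overlapped, with a difference of 0.12 on the log2 scale (two-sided exact permutation p = 0.2). The ratio of *Aco1* to *Ireb2* was 1.07, 1.01 and 1.17 in WT ASCs and 0.994, 1.06 and 1.09 in the knockout, a difference of -0.04 (two-sided exact permutation p = 0.6).

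The ratio of *Tfrc* to *Slc40a1*, importer to exporter, was 333, 386 and 332 in WT ASCs and 134, 103 and 122 in the knockout. It was lower in every knockout library, with a mean of 350.5 ± 30.6 in WT and 119.7 ± 15.4 in the knockout (difference -1.55 on the log2 scale, two-sided exact permutation p = 0.1). That p is the smallest that 3 against 3 libraries allow, so this test cannot reach 0.05 here. As both genes passed the test on their own, in opposite directions, the ratio describes their joint size and is no separate evidence. With the longest coding transcripts as lengths the means were 166 ± 14.5 and 56.7 ± 7.32, those of *Fth1* to *Ftl1* 0.152 ± 0.00595 and 0.165 ± 0.0097, and those of *Aco1* to *Ireb2* 0.771 ± 0.0587 and 0.748 ± 0.0346, with the same differences on the log2 scale.

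**Figure D4:**
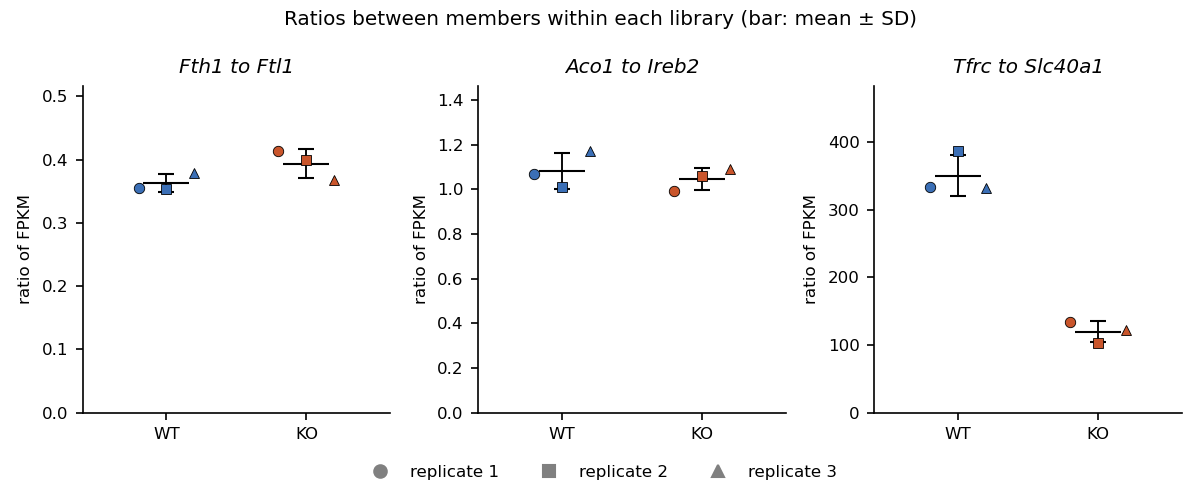
Ratios of FPKM (y axes, from 0) between members within each WT and *Bdh2*-knockout (KO) ASC library, with 1 symbol per replicate number and the mean ± SD of 3 libraries as bars. The ratio of *Tfrc* to *Slc40a1* falls from 332 to 386 in WT to 103 to 134 in the knockout, while the other ratios overlap.

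Beyond the members, 68 other iron genes were listed by role, and 61 of them were tested. Of these 29 differed, 15 higher and 14 lower (47.5%, beside 41.7% of all tested genes), with a median log2 fold change near 0. The number that fell depended on the libraries: it was 7 without knockout 1 (13 rose), 7 without knockout 3 (15 rose) and 8 without WT 1 (14 rose), and DESeq2 gave 9 (15 rose). In uptake 2 of 17 tested genes rose and 4 fell, and in storage and iron chaperones 3 of 10 rose and 1 fell. In heme turnover and transport 1 of 8 rose and 3 fell, and in mitochondrial iron 2 of 7 rose and 3 fell. Among the 6 partners of the sensors 3 rose and none fell, *Cul1* (0.27) and *Rbx1* (0.16), which belong to the ligase of FBXL5, and *Ciao1* (0.34), of the cytosolic iron-sulfur assembly machinery, each given as log2 fold change.

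Among the listed genes that rose, *Slc39a8*, a transporter of zinc that also carries iron, had the largest change, from 1.63 ± 0.253 to 3.16 ± 0.265 CPM (log2 fold change 0.95, SE 0.19, edgeR adjusted p = 0.00172). *Epas1*, which encodes HIF-2alpha and has a stem-loop match in its 5′ UTR in GENCODE M21, rose from 61.4 ± 3.63 to 87.6 ± 6.12 CPM (log2 fold change 0.51, edgeR adjusted p = 4.61e-05). That match (chr17:86753768-86753797, plus strand) lies before the start of the counted gene (86753907). *Cdc14a*, a phosphatase gene with an IRE described in one transcript form but no match here, rose by 0.38 on the log2 scale (edgeR adjusted p = 0.0055). The log2 fold change was 0.37 for *Exoc6*, an exocyst subunit needed for transferrin recycling, and 0.36 for *Hmox2*, the constitutive heme oxygenase (edgeR adjusted p = 0.00148 and 0.0013).

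Among the listed genes that fell was *Slc25a37*, or mitoferrin 1, an iron importer of mitochondria. It went from 36.0, 35.5 and 33.2 CPM in WT ASCs to 21.5, 21.4 and 23.1 CPM in the knockout. The groups were far apart relative to their spread (log2 fold change -0.67, SE 0.06, edgeR adjusted p = 3.97e-06). *Slc25a28*, or mitoferrin 2, fell less, from 32.4 ± 0.432 to 28.2 ± 1.18 CPM (log2 fold change -0.20, edgeR adjusted p = 0.0127). *Pcbp3*, of the poly(C)-binding protein family that includes iron chaperones, had a log2 fold change of -0.37 (15.2 ± 1.45 to 11.8 ± 0.428 CPM, edgeR adjusted p = 0.00464). The more abundant *Pcbp1* (387 ± 31.1 to 462 ± 11.7 CPM, log2 fold change 0.26, edgeR adjusted p = 0.00307) and *Pcbp2* (375 ± 27.4 to 417 ± 15.6 CPM, 0.15, edgeR adjusted p = 0.0477) rose. The *Pcbp2* groups overlapped (407 CPM in WT 3, 401 CPM in knockout 3). *Slc22a17*, a receptor for lipocalin 2, and *Steap1*, of the metalloreductase family, had -0.31 each (edgeR adjusted p = 0.0167 and 0.0477). Of the 15 alternatives set out at the start, 5 lost the *Slc22a17* call and 11 lost the *Steap1* call.

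*Tfr2* and *Cp*, both known from liver, were also lower. *Tfr2*, the second transferrin receptor, was at 4.63, 4.65 and 2.77 CPM in WT ASCs and at 2.14, 2.27 and 1.63 CPM in the knockout (log2 fold change -0.98, SE 0.22, edgeR adjusted p = 0.00366). Its groups did not overlap, and it kept its call with any single library left out (log2 fold change -1.19 to -0.84). It was highest in WT 1 and WT 2, which held most hepatocyte transcripts, but WT 3 was above knockout 2, against the order of the hepatocyte sum. The call was lost with the hepatocyte level as a covariate (log2 fold change -0.55, edgeR adjusted p = 0.076) and without WT 1 and WT 2 together (log2 fold change -0.45, edgeR adjusted p = 0.253), and the part of hepatocyte RNA was not tested. The ferroxidase ceruloplasmin, *Cp*, was at 7.30, 4.21 and 0.553 CPM in WT ASCs and at 0.508, 1.90 and 0.292 CPM in the knockout, which ranks the 6 libraries in the same order as the hepatocyte sum does. Its groups overlapped, and its call (log2 fold change -2.10, SE 0.70, edgeR adjusted p = 0.0279) turned to 0.12 with that covariate (adjusted p = 0.823), the part of hepatocyte RNA again not being tested. The *Cp* call was also lost with DESeq2 (adjusted p = 0.135), limma-voom (0.173) and the test against 1.2-fold (0.0683), and without WT 1, WT 2, knockout 1 or knockout 3 (edgeR adjusted p = 0.182, 0.0742, 0.104 and 0.102).

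Hepcidin is a liver hormone that controls ferroportin. Of the 9 listed genes of hepcidin and its regulation, *Hamp*, *Hamp2* and *Tmprss6* had few counts. *Hamp*, the hepcidin gene, had 37, 16 and 3 counts in WT ASCs and 3, 17 and 3 in the knockout and did not pass the test (log2 fold change -1.62, edgeR adjusted p = 0.108). *Hamp2* had 9, 6 and 2 counts against 3, 1 and 0 and was too low to test. *Tmprss6*, the protease that dampens hepcidin induction, had 36, 21 and 9 counts against 3, 13 and 4, with overlapping groups (log2 fold change -2.03, SE 0.60, edgeR adjusted p = 0.0156). In all 3 genes WT 1 was the highest and WT 3 the lowest of the WT libraries, as with the hepatocyte sum of 524, 319 and 51.1 CPM, and the part of hepatocyte RNA in these values was not tested. By contrast *Bmp6*, the ligand that induces hepcidin, rose from 3.67 ± 0.0337 to 5.89 ± 0.320 CPM (log2 fold change 0.68, SE 0.13, edgeR adjusted p = 0.0011), and *Smad7*, a feedback inhibitor of that signal, from 122 ± 2.71 to 140.2 ± 2.22 CPM (log2 fold change 0.20, adjusted p = 0.0042).

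**Figure D5:**
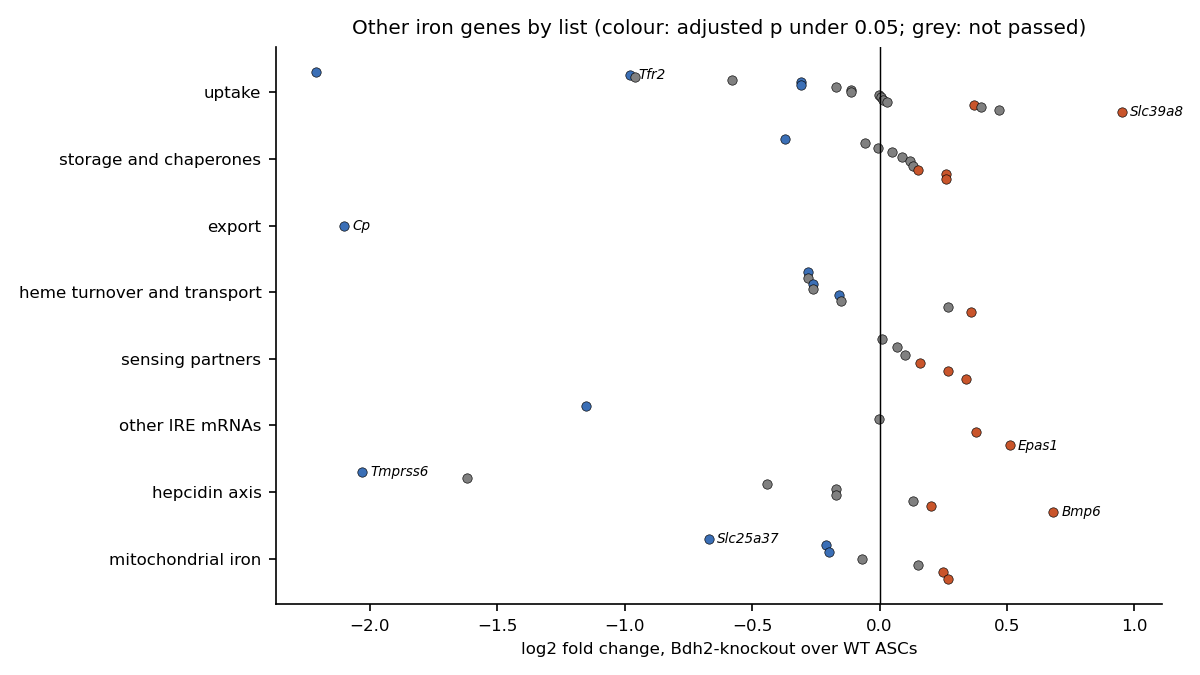
Log2 fold change of *Bdh2*-knockout over WT ASCs (x axis) for the 61 tested iron genes that are not members, 1 point per gene, by list (y axis). Red and blue points passed an adjusted p of 0.05 as higher and lower and grey points did not. Some genes described in the text with large changes are labelled, though not *Hamp* or *Alas2*. The points lie on both sides of 0 in every list with more than 1 tested gene other than the partners of the sensors.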

How the data were processed

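Total RNA of 3 WT and 3 *Bdh2*-knockout ASC libraries was sequenced on an Illumina HiSeq. After trimming of adaptors and poor reads, the authors aligned reads to GRCm38 with HISAT2 (version 2.0.5, per the submitters' processing notes) and counted reads per gene with FeatureCounts. The deposited values are raw counts per gene, 18927748 to 28333541 per library. No strand setting or treatment of reads with several matches is given in the sources used here.

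From these counts, genes were filtered with filterByExpr, scaled with TMM and compared with the quasi-likelihood test of edgeR 4.0.16 (R 4.3.3), genotype being the only term, with Benjamini-Hochberg adjustment over all 16758 tested genes and a threshold of 0.05. FPKM were computed from the counts and the deposited gene lengths. The study used DESeq2, which was run as an alternative (1.42.0), as was limma-voom (3.58.1). Other alternatives changed scaling, filter, block, covariate, tested fold and libraries. Ratios were compared with exact permutation tests (SciPy 1.17.1). Intervals of folds are at 95%. Replicates of a group differed by more than sampling noise (chi-square per gene 4.08 to 9.59).

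The members and the gene lists were chosen with earlier results of these data known. Any listed gene that passed at a mean TMM-scaled count of 50 or more could be named and the 6 with the largest change in each direction had to be. *Hamp*, *Hamp2* and *Tmprss6*, which fall outside that rule, were chosen after their values were seen. UTR matches and shared 50-base stretches were taken from GENCODE M21, in which 9 of the 10 members had the same start and end as in the count table (all but *Fth1*). One listed gene is not reported here.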

Additional observations from a re-analysis of the deposited data

How the results depend on the processing

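Across the 15 alternatives set out at the start, *Tfrc*, *Slc11a2* and *Slc40a1* kept their direction and call. The members called numbered 3 when a fold of 1.2 was tested, and 5 to 7 in the other fits. Of the listed iron genes 6 were called at that fold and 18 with the hepatocyte covariate (12 higher, 6 lower), and of all tested genes 2457 at that fold. Leaving out 1 library in turn gave 5 to 7 members, 20 to 32 listed genes and 5613 to 7409 genes in all. With WT 1 and WT 2 both left out, an alternative chosen after seeing the data in which the lone WT library is assumed to vary like the knockout libraries, the counts were 5 members, 15 listed genes (10 higher, 5 lower) and 4386 genes.

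Changes near 0 turned sign. *Ftl1* was at -0.0301 with library totals, -0.0527 with the hepatocyte covariate, -0.0546 without WT 1 and WT 2, and -0.0165 to 0.0715 with 1 library left out, *Fth1* at -0.00268 without WT 1 and WT 2, and *Ireb2* at 0.00554 with no filter and -0.0219 to 0.0162 with 1 library left out. *Aco1* ran from -0.11 to 0.0173 with 1 library left out, and reached -0.19 without WT 1 and WT 2 (edgeR adjusted p = 0.042). The ratio of *Aco1* to *Ireb2* ran from -0.09 to 0.02 with 1 library left out (above 0 without WT 3), that of *Fth1* to *Ftl1* from 0.08 to 0.16 and that of *Tfrc* to *Slc40a1* from -1.64 to -1.45. *Cp* was at 0.12 with the hepatocyte covariate, 0.72 without WT 1 and WT 2 and -3.26 to -1.33 with 1 library left out. At a mean count of at least 50 *Slc11a1* was not tested. The cause of these differences was not tested.

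Library totals without TMM moved the median of all genes by -0.058 and the split of all calls from 3518 higher and 3478 lower to 2731 and 4451, and that of the listed iron genes from 15 and 14 to 12 and 18. The deviations of same-numbered libraries correlated at -0.154, 0.0995 and 0.245 for numbers 1 to 3, so not every pair was over 0.1. WT 2, WT 3 and knockout 3 correlated best with their own number, and WT 1, knockout 1 and knockout 2 with another. With the replicate block 6 members, 29 listed genes and 6452 genes in all were called, the 3 ratios stayed at 0.12, -0.04 and -1.55, and of the members and the 12 listed iron genes named for their size only *Steap1* lost its call. Depth limits *Slc11a1*, *Hamp*, *Hamp2*, *Tmprss6* and *Alas2*, with at most 37 counts in any library.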

Other observations

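Erythroid markers were near the floor in both groups: 3 of 10, *Hba-x*, *Hbb-bh1* and *Hbb-bt*, had no count in any library, and the summed level was 4.60 to 4.70 CPM in WT ASCs and 3.99 to 4.84 CPM in *Bdh2*-knockout ASCs, most of it *Epor*. *Alas2*, the erythroid enzyme of heme synthesis and carrier of a 5′ UTR stem-loop match, had 18, 13 and 15 counts in WT ASCs (0.926, 0.643 and 0.593 CPM) and 6, 10 and 9 in the knockout (0.218, 0.366 and 0.375 CPM), with groups that did not overlap (log2 fold change -1.15, SE 0.38, edgeR adjusted p = 0.0268). *Alas2* was chosen after its values were seen.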
